A study of Mus musculus with 6 samples.

Results

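The 30 genes described here encode the enzymes that build cholesterol, the regulators that set their transcription, and proteins that move, export or store sterol. They were taken by gene name from a table of 18708 genes measured in the stomach corpus, and each name matched 1 row. The set holds 18 enzymes of synthesis, 5 regulators, 6 genes of sterol transport, efflux and storage, and the lipin Lpin1. No cell-surface lipoprotein receptor is among the 30, so uptake is represented only by proteins that handle sterol inside the cell. RNA came from the corpus, the acid-secreting part of the stomach, of 3 C57BL/6 mice with the RUNX3 R122C genotype, an amino acid substitution in a RUNX transcription factor, and 3 wild-type (WT) C57BL/6 mice. All 6 mice were 6 months old, and each library came from 1 mouse, so the replicates are animals. The sources used here do not give zygosity, sex or the way the allele was made.

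Cholesterol is made from acetyl-CoA in a long chain of reactions. The mevalonate arm turns acetyl-CoA into farnesyl diphosphate, and the sterol arm joins farnesyl units into squalene, closes the ring and trims lanosterol to cholesterol. The genes of both arms are classic targets of sterol regulatory element-binding proteins (SREBPs), transcription factors made as membrane precursors in the endoplasmic reticulum. SCAP escorts the precursors to the Golgi for cleavage when sterol is low, and the INSIG proteins hold SCAP back when sterol is high. Surplus sterol leaves the cell through ABC transporters that oxysterol-sensing liver X receptors (LXRs) induce, or is esterified and stored. In the corpus, acid-secreting parietal cells are rich in membranes.

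The promoters of 3 genes are shown because their genes carry the results below: Insig1 had the largest log2 fold change of the 28 tested genes, Hmgcs1 the highest level in WT, and Lss the only window of these genes that matched the RUNX core letters. Each window runs from 250 bases before to 50 bases from the gene start on, from RefSeq, build GRCm38.p6. Insig1 lies at chr5:28071162-28071461, Hmgcs1 at chr13:119690101-119690400 and Lss at chr10:76531355-76531654, all on the plus strand. Capitals mark matches, on either strand, to the sterol regulatory element TCACNCCAC, the E-box CACGTG, the CCAAT box CCAAT, the LXR repeat (AGGTCA, any 4 bases, AGGTCA) or the RUNX core TGTGGT.
Insig1: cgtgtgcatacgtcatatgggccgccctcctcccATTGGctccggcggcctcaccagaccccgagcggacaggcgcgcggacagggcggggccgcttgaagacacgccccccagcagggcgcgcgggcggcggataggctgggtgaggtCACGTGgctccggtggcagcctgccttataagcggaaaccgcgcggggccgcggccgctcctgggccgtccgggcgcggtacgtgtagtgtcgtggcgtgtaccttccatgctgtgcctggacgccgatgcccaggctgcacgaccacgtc
Hmgcs1: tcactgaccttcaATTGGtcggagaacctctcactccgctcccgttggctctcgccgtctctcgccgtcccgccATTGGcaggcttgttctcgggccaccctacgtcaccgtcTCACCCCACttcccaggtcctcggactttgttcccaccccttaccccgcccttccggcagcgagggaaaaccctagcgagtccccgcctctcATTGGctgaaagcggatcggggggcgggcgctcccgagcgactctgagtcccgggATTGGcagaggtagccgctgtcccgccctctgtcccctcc
Lss: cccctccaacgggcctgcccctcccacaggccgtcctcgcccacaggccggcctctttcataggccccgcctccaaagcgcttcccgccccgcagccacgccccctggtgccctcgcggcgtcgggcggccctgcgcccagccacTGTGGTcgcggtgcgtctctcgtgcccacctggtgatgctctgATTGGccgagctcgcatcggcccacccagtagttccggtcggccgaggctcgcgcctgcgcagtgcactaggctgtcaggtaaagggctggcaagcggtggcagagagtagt
The Insig1 window held an E-box at -101 and a reversed CCAAT box at -216. The Hmgcs1 window held 1 sterol regulatory element, TCACCCCAC, at -137, and 4 reversed CCAAT boxes. The Lss window held TGTGGT at -105 and a reversed CCAAT box at -62.

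RefSeq promoter windows were found for 24 of the 30 genes, 32 windows in all, some of them overlapping windows of the same gene. The CCAAT box stood in 21 of the 32 windows (65.6%), against 37.4% of all 32851 windows. The E-box stood in 7 windows of 6 genes (21.9%, against 7.15% of all windows), namely Abca1, Dhcr7, Hsd17b7, Insig1, Sc5d and Scap. The sterol regulatory element in this spelling stood in 1 window (3.12%, against 1.24%), and the RUNX core letters also in 1 (3.12%, against 16.8%). The LXR repeat was in 0.0152% of all windows and in none of these 32. None of these motifs contains another. These counts describe letters and were not tested.

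The deposited values are FPKM, fragments scaled by transcript length and library total, so levels can be compared between genes. Depth, estimated from the spacing of low values, was between 31600000 and 44100000 fragments per library. Correlations of log2 values across genes were 0.9242 to 0.9758 within R122C, 0.9616 to 0.9771 within WT and 0.8338 to 0.9415 between groups. R122C 3 stood farthest from the others, with a summed level of 11 squamous epithelium markers of 1412 FPKM, against 34.9 and 54.6 in the other R122C libraries and 1.19 to 21.7 in WT. Its 8 parietal cell markers summed to 2757 FPKM, against 7382 and 6399 in the other R122C libraries and 5694 to 10415 in WT, so parietal markers were present in every library. Car2, the parietal marker with a log2 fold change above 0, made up much of that sum, and the other 7 summed to 5563, 4279 and 1038 FPKM in R122C and 9350, 4580 and 6866 FPKM in WT. Limma called 1 of 10 tested squamous markers higher and 0 of 8 parietal markers, although 7 parietal markers leaned to lower values in R122C (median log2 fold change of the list -1.05). Markers of other cell types also passed the test. All 4 mucous neck cell markers were called higher (median log2 fold change 4.94), with sums of 17666 to 25776 FPKM in R122C and 3216 to 4958 FPKM in WT. All 4 pit cell markers were lower without overlap (median -1.62, 1 called, Muc5ac), with sums of 53176 to 77647 FPKM in R122C and 104449 to 242853 FPKM in WT. Of 6 mast cell markers 4 were called higher (median 2.75), while Kit leaned lower (log2 fold change -0.49, limma adjusted p = 0.455). The mast cell sums were 182, 123 and 900 FPKM in R122C and 33.2 to 71.1 FPKM in WT. Of 7 enterocyte markers 2 were called higher and 1 lower. The 4 tested adipocyte markers had log2 fold changes above 0 (median 1.17), the 5 chief cell markers went both ways, and 0 of either list were called. Y-linked transcripts were present in R122C 2 and WT 3. Runx3 was at 0.24, 0.34 and 0.95 FPKM in R122C and 0.34, 0.12 and 0.20 FPKM in WT, and at this level, with a point mutation, it does not check the labels. In whole tissue, fewer cells of a type and less RNA per cell cannot be told apart.

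No gene of the set passed the test between R122C and WT, and the measured differences were small. Groups were compared with limma on log2(FPKM + 1) over the 11422 genes whose mean reached 1 FPKM, and 28 of the 30 genes were in that fit. None of the 28 had an adjusted p under 0.05 in either direction, where 5.27% of all genes tested were called higher and 0.832% lower in R122C. The 95% interval of the log2 fold change lay within 1 either way for 24 of the 28, as it did for 68.8% of all genes tested. None of the 28 had a log2 fold change beyond 1, whereas 8.92% of all genes did.

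Most of the differences nevertheless leaned to lower values in R122C. Of the 28 tested genes, 21 had a log2 fold change below 0, as did 38.9% of all genes tested. The median log2 fold change was -0.22, beside 0.10 over all genes tested. At an unadjusted limma p under 0.05, 3 genes were lower (Scap, Hmgcs1 and Acat2) and 1 was higher (Insig1), where 4.88% and 15.3% of all genes were. Groups did not overlap for 3 tested genes that were lower (Acat2, Sqle and Lss; background 5.19%) and 2 that were higher (Insig1 and Srebf1; background 20.3%).

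The size of this lean depended on scaling and on single libraries. After rescaling the libraries to a common FPKM total, the median over all genes tested was 0.29 and that of the 28 genes -0.0012, with 15 below 0. With median-of-ratios scaling the medians were -0.0028 and -0.32, and with quantile normalization -0.06 and -0.39. The distance between the set and all genes thus remained near 0.3 under each scaling. Without R122C 2 the median of the set was -0.11, and without WT 2 it was also -0.11. Weighting the libraries by their spread changed the calls, both in the set and over all 11422 genes tested. Gene-by-gene array weights, chosen after seeing the data, called 2 of the 28 genes higher and 5 lower. Over all genes they called 2006 higher and 639 lower. Weights by REML, which did not converge, called 3 of the 28 higher and 19 lower, beside 3812 and 1697 over all genes. WT 2 held the highest value of the 6 libraries in 13 of the 30 genes.

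**Figure D1:**
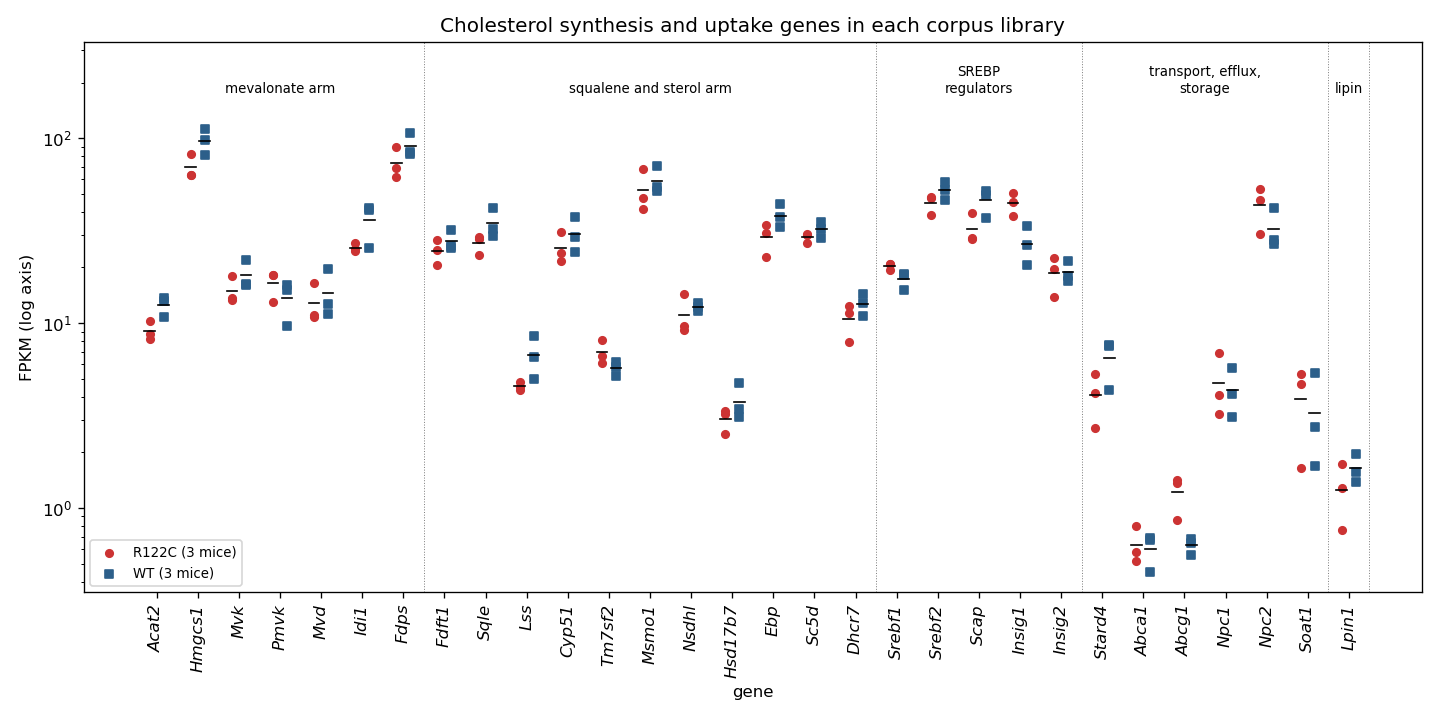
FPKM of the 30 genes on a log axis in the 3 R122C libraries (circles, left of each pair) and the 3 WT libraries (squares, right), grouped by role, with short lines at the group means. The points of most genes overlap between groups; the R122C points lie above the WT points without overlap for Insig1 (37.89 to 50.84 against 20.72 to 33.36), Srebf1 and Abcg1.

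**Figure D2:**
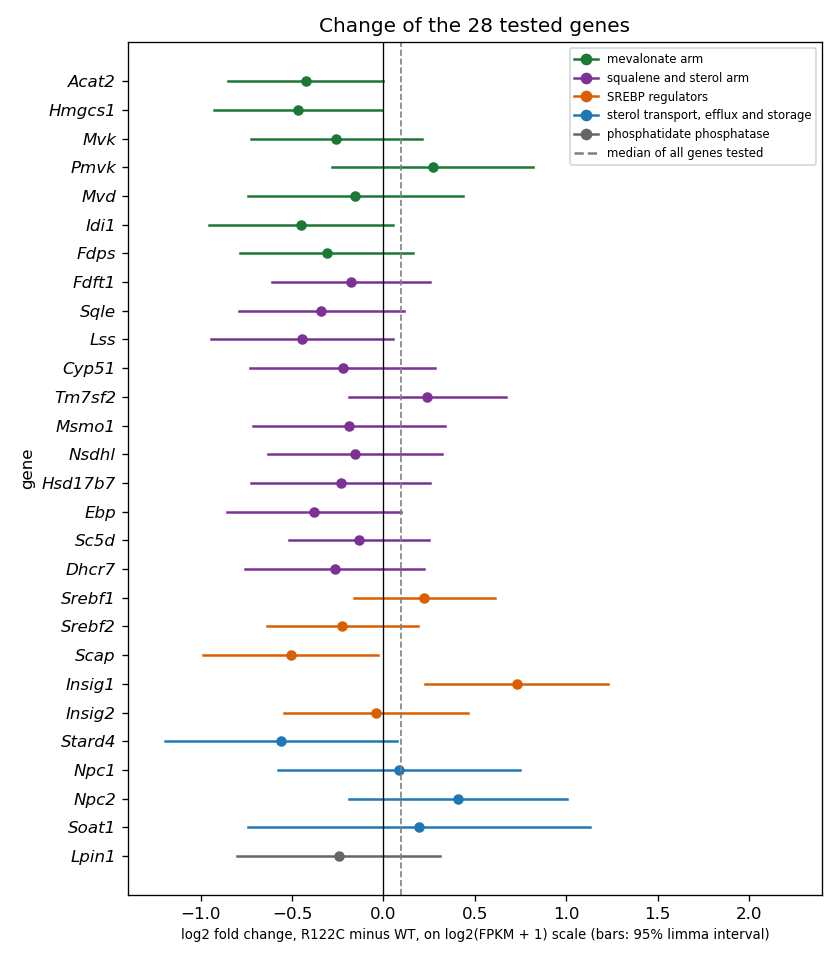
Log2 fold change of the 28 tested genes, R122C minus WT, on the log2(FPKM + 1) scale, with 95% limma intervals as bars, 0 as a solid line and the median of all genes tested, 0.10, as a dashed line. Of the 18 enzymes 16 lie below 0, and Insig1 at 0.73 is the point farthest to the right.

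The mevalonate arm held the most abundant transcripts of the set, and 6 of its 7 genes had a log2 fold change below 0, with a median of -0.31 and 0 past the threshold. Hmgcs1 makes HMG-CoA in the cytosol (chromosome 13, 119690379 to 119708260, plus strand). It was at 82.25, 63.45 and 62.93 FPKM in R122C and 97.48, 111.57 and 80.87 FPKM in WT. The groups met only at R122C 1, which lay just above WT 3. Its means were 69.5 ± 11.0 FPKM in R122C and 96.6 ± 15.4 FPKM in WT (SD, n = 3 each), and its log2 fold change was -0.47 ± 0.20 (SE; adjusted p = 0.239 by limma).

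Acat2, the cytosolic thiolase that condenses acetyl-CoA, was at 8.22, 8.74 and 10.31 FPKM in R122C and 13.22, 13.73 and 10.74 FPKM in WT. Every R122C value lay below every WT value, with R122C 3 and WT 3 close together (log2 fold change -0.43 ± 0.19, SE, limma adjusted p = 0.246). Idi1, which isomerises isopentenyl diphosphate, was at 25.23, 24.58 and 27.06 FPKM in R122C and 41.92, 41.16 and 25.65 FPKM in WT. Its R122C values were tight, while WT 3 stood apart from the other WT libraries at the R122C level (-0.45 ± 0.22, SE, limma adjusted p = 0.302). Idi1 was at 25.6 ± 1.29 FPKM in R122C and 36.2 ± 9.18 FPKM in WT (SD, n = 3 each).

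Fdps, which makes farnesyl diphosphate, was the most abundant gene of the set in R122C. It was at 61.68, 69.29 and 89.61 FPKM in R122C and 81.83, 106.93 and 84.38 FPKM in WT, so R122C 3 fell inside the WT range. GENCODE M21 places 26.7% of its exonic bases under another annotated gene on the same strand, so its value is uncertain where reads were split. Mvk, mevalonate kinase, was at 13.61, 13.39 and 18.04 FPKM in R122C and 16.12, 22.02 and 16.34 FPKM in WT. Mvd, mevalonate diphosphate decarboxylase, was at 10.76, 11.12 and 16.47 FPKM in R122C and 11.19, 19.67 and 12.64 FPKM in WT. In both genes R122C 3 was the high R122C library and WT 2 the high WT library. Pmvk, phosphomevalonate kinase, leaned the other way. It was at 12.95, 18.31 and 18.18 FPKM in R122C and 15.15, 16.10 and 9.68 FPKM in WT (log2 fold change 0.27 ± 0.24, SE, limma adjusted p = 0.601), with WT 3 the lowest of the 6.

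In the squalene and sterol arm, 10 of 11 genes had a log2 fold change below 0, with a median of -0.22 and 0 past the threshold. Lss, the cyclase that forms lanosterol (chromosome 10, 76531588 to 76557138, plus strand), was at 4.49, 4.79 and 4.37 FPKM in R122C and 6.55, 8.56 and 4.98 FPKM in WT. All R122C values lay below all WT values, and the SD of the R122C values was 0.216 FPKM (log2 fold change -0.45 ± 0.22, SE, limma adjusted p = 0.303). Sqle, squalene epoxidase, a rate-limiting step, was at 23.26, 28.54 and 29.37 FPKM in R122C and 32.35, 42.16 and 29.71 FPKM in WT. Here too the groups did not overlap, although R122C 3 and WT 3 nearly touched (-0.34 ± 0.20, SE, limma adjusted p = 0.392).

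Ebp, the sterol isomerase, was at 30.83, 22.87 and 34.12 FPKM in R122C and 33.03, 37.51 and 44.08 FPKM in WT (log2 fold change -0.38 ± 0.21, SE, limma adjusted p = 0.360). Only R122C 3 reached into the WT range. Fdft1, squalene synthase, was at 24.93, 20.66 and 28.16 FPKM in R122C and 25.50, 31.84 and 26.25 FPKM in WT. Cyp51, lanosterol demethylase, was at 21.68, 24.07 and 31.16 FPKM in R122C and 29.13, 37.40 and 24.14 FPKM in WT. Msmo1, the C4 methyl oxidase, was at 41.60, 47.70 and 67.79 FPKM in R122C and 51.54, 70.82 and 54.83 FPKM in WT. In Fdft1, Cyp51 and Msmo1, R122C 3 was the highest R122C library and WT 2 the highest WT library, and the groups overlapped.

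Nsdhl, which works with Msmo1 in removing the C4 methyl groups, was at 9.21, 9.60 and 14.41 FPKM in R122C and 12.18, 11.61 and 12.88 FPKM in WT. Hsd17b7, the ketoreductase of the same step, was the least abundant enzyme at 2.52, 3.33 and 3.21 FPKM in R122C and 3.42, 4.72 and 3.12 FPKM in WT. Both overlapped between groups. Sc5d, the desaturase that introduces the C5 double bond, was at 30.11, 26.97 and 30.43 FPKM in R122C and 28.95, 35.08 and 32.37 FPKM in WT. Its log2 fold change of -0.13 had a 95% interval of -0.52 to 0.25, the narrowest of the enzymes by its standard error of 0.168. Dhcr7, the reductase at the end of the chain, was at 12.37, 7.93 and 11.31 FPKM in R122C and 12.85, 10.98 and 14.44 FPKM in WT. Tm7sf2, a C14 sterol reductase, was the enzyme of this arm with a value above 0. It was at 6.64, 6.12 and 8.09 FPKM in R122C and 5.16, 5.79 and 6.17 FPKM in WT (0.24 ± 0.19, SE, limma adjusted p = 0.539).

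In the enzymes, libraries of the same genotype differed from each other by amounts like those between genotypes. Against the WT mean, the median log2 deviation of the 18 enzymes was -0.37 in R122C 1, -0.35 in R122C 2 and -0.04 in R122C 3. In WT it was -0.09 in WT 1, 0.23 in WT 2 and -0.14 in WT 3. R122C 1 and R122C 2 thus lay below all WT libraries, and R122C 3 lay between WT 1 and WT 2. The enzymes summed to 422, 411 and 505 FPKM in R122C and 518, 628 and 493 FPKM in WT. R122C 3 was also the library high in squamous and low in parietal markers. Mucous neck and most mast cell markers were higher and pit cell markers lower in R122C. The part of these cells in the enzyme values was not tested. Without R122C 3 the median of the 28 tested genes was -0.33.

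**Figure D3:**
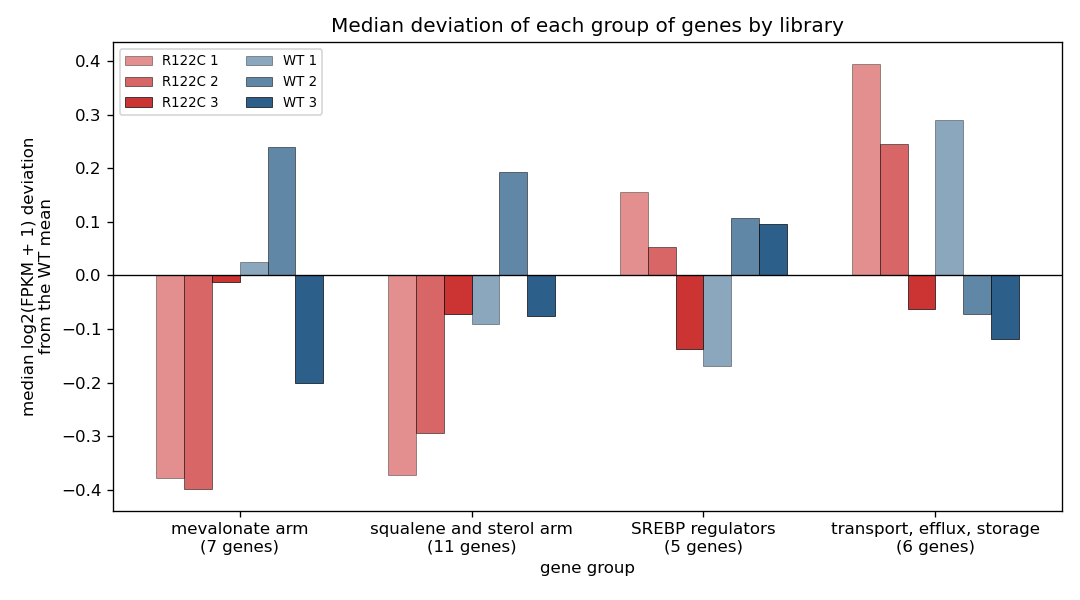
Median log2(FPKM + 1) deviation from the WT mean for 4 groups of genes, with 1 bar per library, R122C in red on the left and WT in blue on the right of each group. The bars of R122C 1 and R122C 2 are lowest in the mevalonate arm (-0.38 and -0.40) and the sterol arm (-0.37 and -0.29), while R122C 3 stays near 0 (-0.01 and -0.07).

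The log2 fold changes of the 5 regulators had no common sign, and that of Insig1 was the largest of the tested genes of the set. Insig1, which retains SCAP in the endoplasmic reticulum and is itself an SREBP target (chromosome 5, 28071363 to 28078662, plus strand), was at 50.84, 45.31 and 37.89 FPKM in R122C and 26.51, 33.36 and 20.72 FPKM in WT. Every R122C value lay above every WT value. The means were 44.7 ± 6.50 FPKM in R122C and 26.9 ± 6.33 FPKM in WT (SD, n = 3 each), 1.66 times as high in R122C. The log2 fold change of 0.73 ± 0.22 (SE, 95% interval 0.23 to 1.23) did not pass (limma adjusted p = 0.0983). It passed after rescaling to a common total (0.95, limma adjusted p = 0.0278) and with gene-by-gene (limma adjusted p = 0.0314) or REML array weights (0.00406). It also passed with a replicate block (limma adjusted p = 0.0378), although whether the numbers pair the samples was not settled. Each of these settings also called more genes higher over all genes tested than the 602 of the main fit. The counts were 1260 after rescaling, 2006 with gene-by-gene weights, 3812 with REML weights and 1119 with the block. The limma adjusted p of Insig1 lay between 0.0714 and 0.296 when each library was left out in turn.

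Insig2, its paralog, which is generally not an SREBP target, was at 22.49, 19.54 and 13.79 FPKM in R122C and 16.85, 21.81 and 18.08 FPKM in WT. Its groups overlapped fully, with a log2 fold change of -0.04 and a 95% interval of -0.54 to 0.46. Scap, the escort protein, was at 39.22, 28.42 and 29.02 FPKM in R122C and 37.19, 49.29 and 52.05 FPKM in WT. R122C 1 and WT 1 crossed, while the other libraries were well separated (-0.51 ± 0.21, SE, limma adjusted p = 0.222). An opposite-strand gene shares 13.2% of the exonic bases of Scap, and the sources used here do not say whether counting used strand. Other annotated genes also share 18.3% of the exonic bases of Fdft1 and 12.1% each of those of Hmgcs1 and Tm7sf2. The largest partner lies on the same strand for Tm7sf2 and on the opposite strand for Fdft1 and Hmgcs1.

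Srebf2, the SREBP that drives cholesterol synthesis, was at 48.12, 38.65 and 47.34 FPKM in R122C and 46.30, 52.75 and 58.15 FPKM in WT (log2 fold change -0.23 ± 0.18, SE, limma adjusted p = 0.552). Srebf1, whose products act mainly on fatty acid genes, was at 19.33, 20.78 and 20.76 FPKM in R122C and 15.17, 18.27 and 18.49 FPKM in WT. The R122C values of Srebf1 were tight and all above WT, but by little (0.22 ± 0.17, SE, limma adjusted p = 0.528). Srebf2 transcript was the more abundant of the pair in all 6 libraries. The ratio of Srebf1 to Srebf2 was 0.402, 0.538 and 0.439 in R122C and 0.328, 0.346 and 0.318 in WT.

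Ratios within a library do not depend on how libraries are scaled. Those given here were chosen after the values were seen and are a description. The ratio of Insig1 to each of the other 29 genes was higher in R122C without overlap for 20 of them and overlapped for 9 (Pmvk, Mvd, Tm7sf2, Nsdhl, Srebf1, Abcg1, Npc1, Npc2 and Soat1). The same count over all genes tested was not made, and Insig1 itself did not overlap between groups. The 20 are therefore not a result about these genes. The ratio of Insig1 to Hmgcs1 was 0.618, 0.714 and 0.602 in R122C and 0.272, 0.299 and 0.256 in WT, 2.34 times as high in R122C by the means. Both groups were tight and far apart. Against the geometric mean of the 18 enzymes, Insig1 stood at 3.08, 2.75 and 1.89 in R122C and 1.33, 1.39 and 1.09 in WT. Against Scap, the protein its product binds, it stood at 1.30, 1.59 and 1.31 in R122C and 0.713, 0.677 and 0.398 in WT. Against Insig2 it stood at 2.26, 2.32 and 2.75 in R122C and 1.57, 1.53 and 1.15 in WT. The groups did not overlap in any of these 4 ratios. Insig1 had the largest log2 fold change of the tested genes of the set, while Hmgcs1 (-0.47) and Scap (-0.51) leaned lower. Separation was therefore likely from the choice of genes, and the 4 ratios are not a separate result. They also do not tell which of the 2 sides moved.

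**Figure D4:**
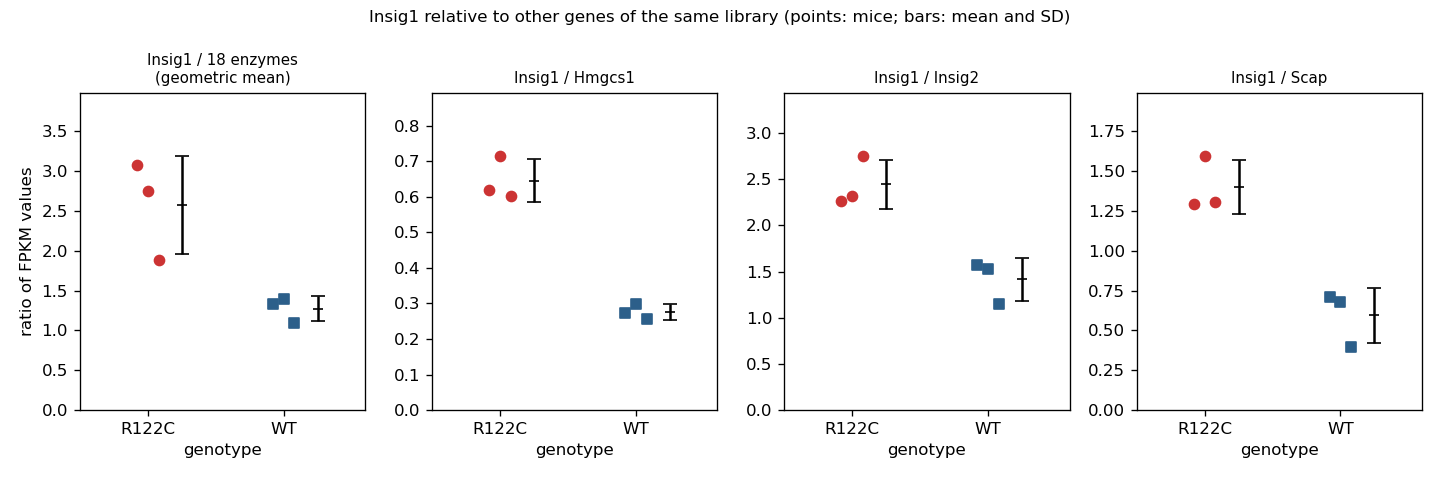
Ratio of Insig1 FPKM to the geometric mean of 18 synthesis enzymes, Hmgcs1, Insig2 and Scap in each library, R122C left (circles) and WT right (squares), with mean and SD (n = 3 each) as bars. In each panel the 3 R122C points lie above the 3 WT points, for example 0.602 to 0.714 against 0.256 to 0.299 for Hmgcs1.

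Genes of sterol transport, efflux and storage showed no common direction: of 4 tested, 3 had a log2 fold change above 0 and 1 below, and 0 passed. Npc2, the soluble protein that takes cholesterol out of lysosomes, was at 53.26, 46.35 and 30.50 FPKM in R122C and 41.79, 28.15 and 26.87 FPKM in WT. R122C 1 and WT 1 were the high libraries of their groups, and the groups overlapped (0.41 ± 0.26, SE, limma adjusted p = 0.444). Npc1, its membrane partner, was at 6.90, 3.22 and 4.07 FPKM in R122C and 5.71, 3.10 and 4.16 FPKM in WT. The groups of Npc1 covered nearly the same range, with a log2 fold change of 0.08 and a 95% interval of -0.58 to 0.75.

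Stard4, a cytosolic sterol carrier and SREBP target, was at 5.34, 4.18 and 2.70 FPKM in R122C and 7.50, 7.58 and 4.35 FPKM in WT. Of all tested genes of the set it had the lowest log2 change, -0.56 ± 0.28 (SE, limma adjusted p = 0.310), with WT 3 inside the R122C range. Soat1, which esterifies cholesterol for storage, was at 5.32, 4.68 and 1.65 FPKM in R122C and 5.36, 1.68 and 2.74 FPKM in WT. It was the gene with the widest spread within groups, and its 95% interval reached from -0.74 to 1.13.

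The efflux transporters Abca1 and Abcg1, both LXR targets, were the least abundant of the 30 and lay under the filter. Abcg1 was at 0.86, 1.37 and 1.42 FPKM in R122C and 0.68, 0.65 and 0.56 FPKM in WT. All R122C values were higher, with means of 1.22 ± 0.310 FPKM in R122C and 0.63 ± 0.062 FPKM in WT (SD, n = 3 each) and an exact two-sided permutation p of 0.1, the smallest that 3 against 3 allows. The ratio of its means, 1.93, was above the 1.66 of Insig1, and its log2 difference was 0.43 with a pseudocount of 1 FPKM and 0.82 with 0.1 FPKM, where Insig1 was at 0.75. Abca1 was at 0.80, 0.58 and 0.52 FPKM in R122C and 0.69, 0.67 and 0.45 FPKM in WT, and its groups overlapped (exact permutation p = 0.9). Both transporters are known from macrophages. The 6 macrophage markers summed to 8.73, 14.6 and 16.0 FPKM in R122C and 8.73, 7.94 and 7.65 FPKM in WT. Cd68 was the largest part, at 4.51, 9.62 and 12.25 FPKM in R122C and 2.89, 4.74 and 6.16 FPKM in WT. Cd163 was lower in R122C without overlap, at 0.06, 0.06 and 0.03 FPKM, against 0.27, 0.16 and 0.07 FPKM in WT. The mean of Mrc1 was also lower in R122C, 0.60 against 0.69 FPKM, with overlap. Of the 6 markers, 2 were abundant enough to test and 0 passed. Marco never exceeded 0.01 FPKM, and the part of these markers' cells in Abcg1 was not tested. Lpin1, a phosphatidate phosphatase that also acts on SREBP activity, was at 1.73, 0.76 and 1.28 FPKM in R122C and 1.97, 1.57 and 1.39 FPKM in WT (-0.25 ± 0.24, SE, limma adjusted p = 0.646).

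Genes next to the pathway, in 5 further lists, showed 1 call, where 5.27% of all genes tested were called higher and 0.832% lower. The 1 call is therefore not a result about these lists. Of 18 fatty acid synthesis genes, many of them SREBP-1 targets, 1 was called higher and 0 lower, with a median log2 fold change of 0.01. That gene was Fads2, the delta-6 desaturase, at 7.83, 9.25 and 13.83 FPKM in R122C and 3.24, 2.68 and 3.02 FPKM in WT. Its groups were far apart, and its log2 fold change was 1.47 ± 0.23 (SE; adjusted p = 0.00892 by limma). None passed among 11 genes of SREBP processing and sterol-regulated degradation (median 0.05), 21 tested genes of LXR and other sterol handling (-0.03), 2 tested oxysterol and bile acid enzymes (-0.21) or 13 genes of the isoprenoid branch (0.16). The isoprenoid branch uses the farnesyl diphosphate that the mevalonate arm makes.

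The highest and lowest levels belonged to the same genes in both genotypes, while Insig1 ranked 5 in R122C and 13 in WT and Idi1 12 in R122C and 7 in WT. By mean, Fdps and Hmgcs1 led the set in R122C at 73.5 and 69.5 FPKM, whereas in WT Hmgcs1 at 96.6 FPKM stood above Fdps at 91.0 FPKM. Msmo1 and Srebf2 came next in both genotypes, and in WT they averaged 59.1 and 52.4 FPKM. Hmgcs1 and Fdps, neighbours in that order, overlapped in their values within each genotype. Hsd17b7, Soat1, Lpin1, Abcg1 and Abca1 were at the low end, all under 4 FPKM by mean in both groups. Between the genes the means spanned from 0.63 to 73.5 FPKM in R122C and from 0.60 to 96.6 FPKM in WT.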

How the data were processed

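The authors deposited 1 table of FPKM values for 6 corpus libraries, with 2 decimals. Per the submitters' processing notes, STAR, featureCounts and mm10 were used; the sources used here do not give settings or how FPKM was computed. Values were analysed as log2(FPKM + 1) with limma 3.58.1 in R 4.3.3 (trended empirical Bayes, two-sided, Benjamini-Hochberg over the 11422 genes whose mean reached 1 FPKM, threshold 0.05). The pseudocount of 1 FPKM understates changes of low genes. Genes under the filter had an exact permutation test. Values are named for all 30 genes, and of the further lists for genes past the threshold. The members and lists were chosen with earlier results of these data known. A total of 2 list names were matched through older symbols. Depth came from the spacing of low values in genes with 1 annotated transcript, where estimates from transcripts up to 1000 and up to 1500 nucleotides lay within 5% of each other. On simulated data with 11422 genes, the share recovered of 50 genes each was 0% at a log2 change of 0.5, 20% at 1 and 90% at 2. Alternatives were pseudocounts of 0.1 and 0.5, no filter, a filter of 5 FPKM, 3 scalings, untrended eBayes, array weights, a Y-linked covariate, a replicate block and leaving out each library. Positions are from GENCODE M21 (GRCm38, the assembly of mm10). Figures were drawn with matplotlib 3.10.9.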

Additional observations from a re-analysis of the deposited data

How the results depend on the processing

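Of 28 tested genes of the set, 20 kept the sign of their log2 fold change under every alternative that tested them (18, or 17 for Hsd17b7, Lpin1, Npc1 and Soat1, which the 5 FPKM filter removed) and 8 turned sign at least once, in each case without a call under that alternative. No gene of the set was called under either other pseudocount, without a filter, with a filter of 5 FPKM, with quantile normalization or median-of-ratios scaling, untrended eBayes, the Y-linked covariate or without any single library. The median of the set was -0.39 with quantile normalization and -0.0012 after rescaling to a common total, and ranged from -0.33 to -0.11 over the libraries left out. Rescaling to a common total called 1 gene of the set higher (Insig1). Array weights by REML did not converge and gave R122C 2 a weight of 38.8, with 3 genes called higher, 19 lower and a median of -0.46. Gene-by-gene weights, chosen after seeing the data, gave R122C 2 a weight of 3.86 and WT 2 one of 2.29, and called Insig1 and Npc2 higher and Acat2, Hmgcs1, Idi1, Ebp and Scap lower (2 and 5, median -0.41).

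Whether replicate numbers pair the samples was not settled. Deviations of equal numbers correlated at 0.47, 0.02 and 0.37, and those of unequal numbers between -0.42 and 0.11. For replicates 1, 2 and 3, estimated depth was 44100000, 39300000 and 32050000 fragments in R122C. In WT it was 42850000, 38400000 and 31600000 fragments. The main fit had no block. With the replicate block, 1 gene of the set was higher (Insig1, limma adjusted p = 0.0378) and 1 lower (Stard4, 0.0497), and over all genes 1119 were higher and 259 lower. Each number's own pair was not the best match for every sample.

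Over all genes, 602 were higher and 95 lower. The counts were 392 and 57 with the 5 FPKM filter, and 57 lower with the Y-linked covariate. They were 192 lower with median-of-ratios scaling, 248 lower with quantile normalization and 1260 higher after rescaling to a common total. REML weights gave 3812 and 1697, and gene-by-gene weights 2006 and 639. Over the libraries left out the ranges were 246 to 581 and 14 to 195, lowest without WT 2 and R122C 2. In the 5 further lists 1 gene was higher and 0 lower. There, 2 were lower with no filter, with median-of-ratios scaling or with quantile normalization, and 6 were higher after rescaling. REML weights gave 17 and 12, gene-by-gene weights 10 and 5, and the replicate block 5 and 1. Leaving out libraries gave 1 to 2 higher and 0 to 3 lower. The causes were not tested. Abca1 and Abcg1 had log2 differences of 0.03 and 0.43 (Abcg1 0.59 with a pseudocount of 0.5 FPKM and 0.82 with 0.1 FPKM), from -0.05 to 0.08 and from 0.37 to 0.56 without each library. At this number of animals a log2 change of 0.5 was not recovered in simulated data. The simulated data held fewer changed genes than were called in the real data, which makes the adjustment stricter. The simulation therefore does not settle whether a change of that size was detectable here.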

Other observations

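Among genes of sterol handling and fatty acid synthesis outside the set, those following were chosen after their values were seen. Lipa, the lysosomal acid lipase that frees cholesterol from its esters, was at 9.81, 5.42 and 6.91 FPKM in R122C and 12.08, 17.60 and 16.04 FPKM in WT, a log2 fold change of -0.97 that did not pass (limma adjusted p = 0.0546). Stard3, a late endosomal sterol carrier, was at 25.21, 30.28 and 21.17 FPKM in R122C and 14.25, 17.84 and 15.37 FPKM in WT, with no call either (adjusted p = 0.097 by limma). The desaturase Scd1 was at 5.59, 7.91 and 10.21 FPKM in R122C and 2.09, 6.70 and 1.05 FPKM in WT, with WT 2 inside the R122C range. Me1, malic enzyme, which supplies NADPH for lipid synthesis, was at 304.19, 258.67 and 398.36 FPKM in R122C and 92.71, 163.98 and 195.96 FPKM in WT, without overlap (limma adjusted p = 0.0697). Other fatty acid synthesis genes leaned lower without overlap, among them Acacb (log2 fold change -1.18, limma adjusted p = 0.152) and Fasn (-0.56, limma adjusted p = 0.154). Of the 18 genes in that list, 4 were higher and 3 lower without overlap, where 20.3% and 5.19% of all genes tested were.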
